A study of Mus musculus with 24 samples.

Results

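The subject is the interaction of bile duct ligation (BDL) and time in control mouse liver: the ligation effect at 28 d, BDL minus sham, minus the ligation effect at 48 h. It rests on 12 of the study's 24 liver arrays, 3 in each of 4 groups, chosen by their labels alone. The groups are control BDL 28 d, control sham 28 d, control BDL 48 h and control sham 48 h. All 12 are labelled as male C57/BL6 mice carrying the floxed JNK1f/f allele without the Cre transgene being named, aged 12 weeks in the 28 d groups and 8 weeks in the 48 h groups, so time after surgery and age cannot be told apart. Sham animals had the abdomen opened and closed again. The other 12 arrays are ligated livers at the same times: 6 from JNK1-/- mice, which lack the gene in every cell, and 6 from JNK1Δhepa mice, in which Cre driven by an albumin promoter deletes it in hepatocytes. They enter the common variance estimate and serve once as a comparison; neither mutant has sham arrays. The labels number the replicates and do not say whether an array holds 1 animal or a pool.

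Ligation of the common bile duct blocks the outflow of bile. Bile acids accumulate in hepatocytes, the ducts proliferate, leukocytes enter the tissue, and over weeks stellate cells become matrix-producing myofibroblasts. Hepatocytes respond by lowering the uptake and synthesis of bile acids and by raising export, and the products that mark male liver depend on pulses of growth hormone acting through the factor STAT5. Early surgical stress brings glucocorticoid and acute phase signals that also act on sham-operated animals. Comparing the ligation effect between the times asks which of these changes are present within days, which appear only in established disease, and which pass.

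Values are log2 intensities per gene, made by the authors with RMA, for 18820 genes with 1 symbol. Each gene was tested with limma, and a call means an adjusted p (Benjamini-Hochberg over all genes) under 0.05. Whole liver was measured, so fewer cells of a type and less RNA per cell cannot be told apart. Genes of hepatocyte secretion and metabolism averaged between 12.3 and 12.57 in each of the 12 control arrays, fat and muscle markers between 3.99 and 4.33, and pancreatic acinar markers between 3.92 and 4.38. Control BDL 28 d was the most variable group, with a median SD of 0.187 against 0.115 to 0.119 in the 3 other control groups. Its replicate 3 stood apart in several lists: stellate cell and myofibroblast markers averaged 8.22 there, against 6.39 and 6.81 in replicates 1 and 2, and bile duct cell markers 7.88, against 6.00 and 6.30.

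The arrays labelled control sham 48 h need a caution before any result. Mapk8, which encodes JNK1, read 6.93, 6.67 and 6.86 on them, against 7.37 to 7.67 on the 9 other control arrays. JNK1-/- arrays read 5.18 to 6.17, and JNK1Δhepa arrays 7.67, 6.90 and 6.97 at 28 d and 6.77, 6.81 and 6.76 at 48 h. Nnt, a mitochondrial transhydrogenase gene that differs between C57BL/6 sublines, read 9.68, 8.81 and 8.94 on the arrays labelled control sham 48 h and 8.84 to 9.05 on the JNK1Δhepa 48 h arrays, against 9.45 to 10.25 on the 9 other control arrays. The Nnt reading of 9.68 lay within the range of the 9 other control arrays. The Mapk8 reading of 7.67 on a JNK1Δhepa 28 d array equalled the highest of those 9. Where the probes lie relative to the deleted part of Mapk8 was not known here. The readings do not settle the genotype of these arrays, which was not tested. Every interaction below uses these arrays as labelled. With the 28 d sham arrays in their place, the value becomes BDL 28 d minus BDL 48 h, called the ligated side here. By that measure 215 of the 244 interactions described next stayed called in the same direction. Among the genes picked by the naming rules given under processing, those that lost their call were Atp12a, Cish, Foxa1, Foxq1, Hhex, Mt1, Mt2, Nnt, Rassf7, Rnf152, Rtn4rl1 and Slc8a1. Fign, Mir101b, Ppip5k2 and Cebpa are named below outside those rules, and that list does not cover them. Their ligated sides were -0.124, -0.278, 0.13 and -0.327.

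The interaction was called for 244 genes (1.3% of the 18820 tested), 133 higher (0.707%) and 111 lower (0.59%), of which 161 differed at least 2-fold. The count was 126 in a fit of the 12 control arrays alone and 1962 with the 28 d sham arrays at both times. It ranged between 112 and 612 when 1 array was left out, with 612 without control BDL 28 d replicate 3, 391 without its replicate 2 and 112 without control sham 48 h replicate 1 or 3. Higher means that the ligation effect was more positive at 28 d than at 48 h. Ligation itself was called for 4360 genes at 28 d (23.2%), 2199 up (11.7%) and 2161 down (11.5%), against 1775 genes at 48 h (9.43%), 1055 up (5.61%) and 720 down (3.83%). Across the 18820 genes the effects at 28 d and 48 h had a Pearson correlation of 0.63; genes are not independent replicates. Of the 1154 genes called at both times, 1141 moved the same way and 49 were called in the interaction. A further 3206 genes passed at 28 d alone and 166 of them had a called interaction, so most genes past the threshold at 1 time were not shown to differ between the times. When each array was centred on its median, the interaction was called for 308 genes, 100 higher and 208 lower. That scaling moved the median ligation effect of all genes to -0.23 at 28 d and -0.20 at 48 h, where the deposited scale gave -0.03 at each time.

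Each called gene falls in 1 class. The ligation effect was called at 28 d and not at 48 h for 166 genes (late only, 98 higher and 68 lower), at 48 h and not at 28 d for 28 (early only, 18 higher and 10 lower), at both times with a larger size at 28 d for 36 (grows, 10 higher and 26 lower) and at both times with opposite signs for 13 (reverses, 6 higher and 7 lower). No gene with the ligation effect called at both times had a called interaction and a smaller effect of the same sign at 28 d. For 1 gene, Atp12a, the effect was called at neither time. The class names follow thresholds: 40 of the 166 late only genes had an unadjusted p under 0.05 at 48 h, and 11 of the 28 early only genes had one at 28 d. Median effects were 1.22 at 28 d and -0.03 at 48 h for the late only genes with a higher interaction, and -2.68 at 28 d and -1.03 at 48 h for the growing genes with a lower one.

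**Figure D1:**
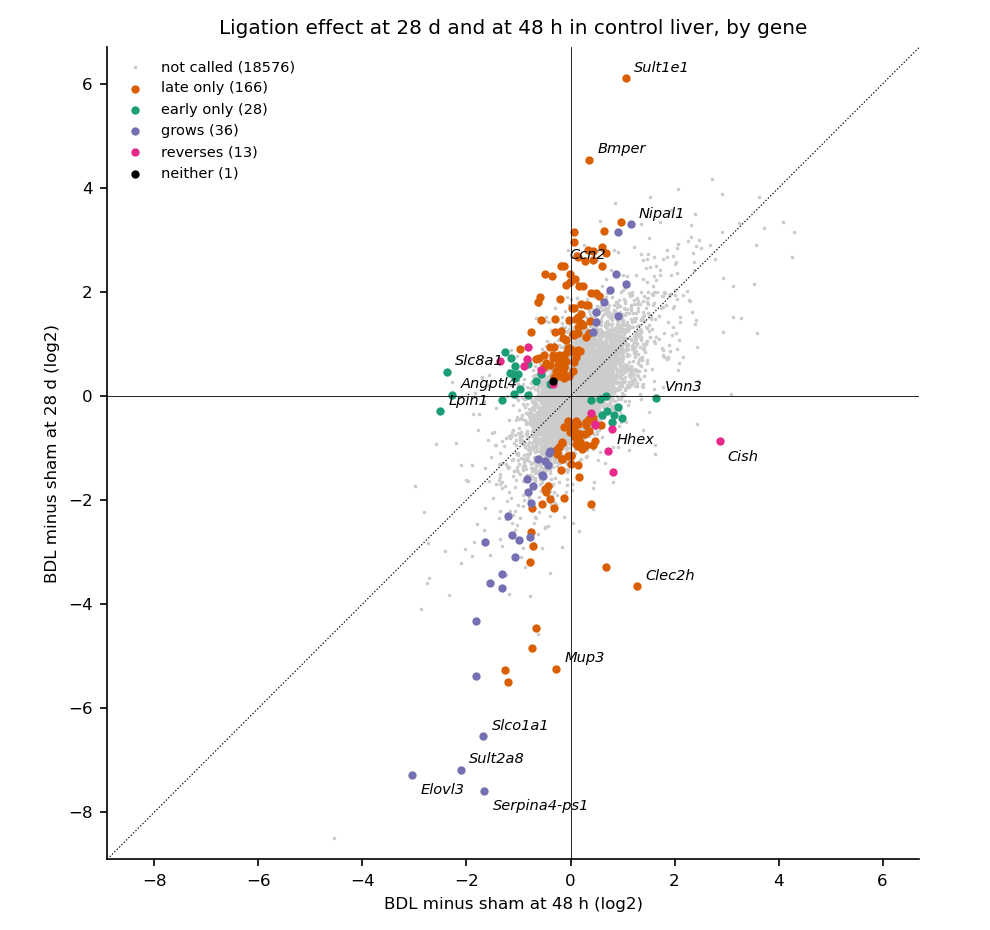
Ligation effect (BDL minus sham, log2) at 28 d on the vertical axis and at 48 h on the horizontal axis for 18820 genes; colours mark the classes of the 244 genes with a called interaction and the dotted line marks equal effects. Late only genes lie along the vertical axis, early only genes along the horizontal axis, while Sult1e1 (6.11 at 28 d, 1.06 at 48 h) lies far above the line and Serpina4-ps1 (-7.59 at 28 d, -1.65 at 48 h) far below it.

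An interaction can come from either pair of arrays. Ligated livers differed between 28 d and 48 h for 1962 genes (10.4%), sham livers for 25 genes (0.133%). For 211 of the 244 genes the ligated arrays differed more between the times than the sham arrays did, and for 33 genes the sham arrays differed more, a split made after the values were seen. The ligated side was called in the direction of the interaction for 215 genes. Of the 33 genes with the larger sham side, 12 were called between the sham groups: Cish, Foxq1, Hhex, Foxa1, Mir101b, Fign and Rtn4rl1 were higher in sham 28 d, and Mt1, Mt2, Slc8a1, Fam107a and Ppip5k2 were lower.

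**Figure D2:**
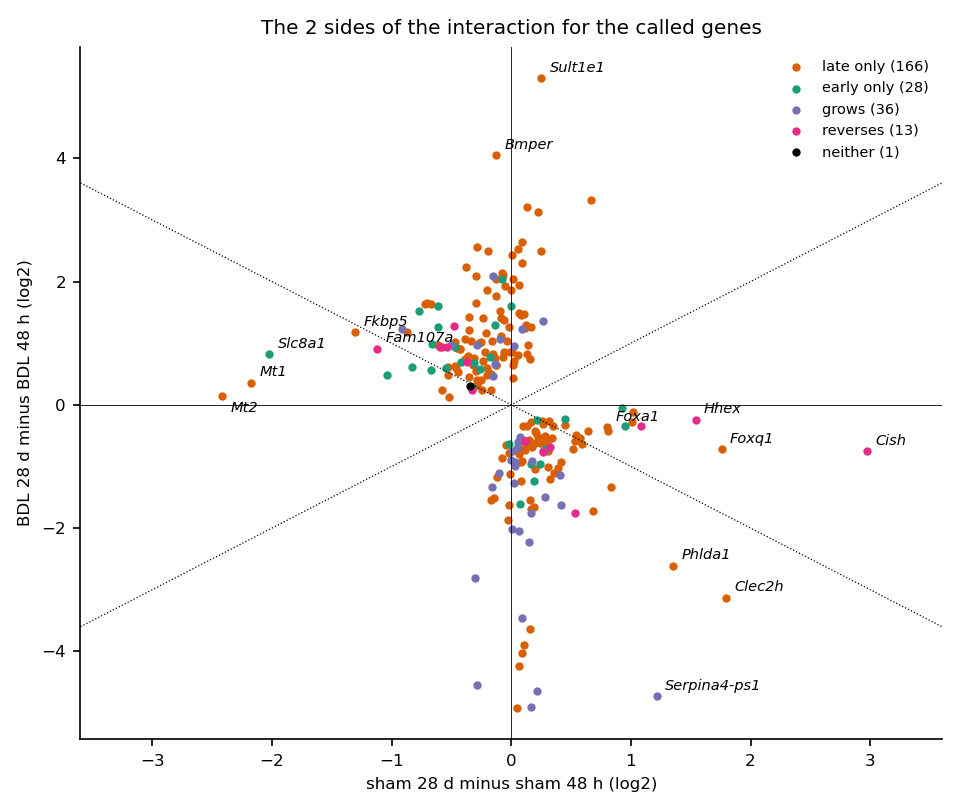
BDL 28 d minus BDL 48 h (vertical axis, log2) against sham 28 d minus sham 48 h (horizontal axis, log2) for the 244 called genes, coloured by class, with dotted lines where both differences have the same size. Most genes lie near the vertical axis, while Cish (sham difference 2.97), Foxq1 (1.76), Hhex (1.54), Mt2 (-2.42), Mt1 (-2.17) and Slc8a1 (-2.02) lie out along the horizontal one.

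Among the late only genes, Sult1e1 had the largest positive interaction of the named genes. It encodes estrogen sulfotransferase, which inactivates estrogens by adding sulfate. It read 11.37, 10.76 and 8.62 in BDL 28 d livers and 4.11, 4.23 and 4.09 in sham 28 d livers. At 48 h it read 5.02, 5.23 and 4.62 in BDL livers and 3.87, 3.96 and 3.84 in sham livers. The 3 livers ligated for 28 d stood above all 9 others, and they spread widely among themselves. Its effect was 6.11 at 28 d (adjusted p = 3.15e-06) and 1.06 at 48 h (adjusted p = 0.38), an interaction of 5.04 (SE 0.96, 33.0-fold, adjusted p = 0.0118), with a ligated side of 5.29. The 8 other measured sulfotransferases had 1 called member, Sult2a8, which was lower. Slc10a6, a carrier of sulfated steroids, had an interaction of 2.62 (SE 0.64, adjusted p = 0.0457), and its adjusted p reached 0.126 over the alternatives.

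Some secreted regulators of the BMP and TGF-beta pathway were also late. Bmper, a secreted protein that binds BMPs, read 10.27, 8.33 and 7.34 in BDL 28 d livers and 4.11, 4.11 and 4.09 in sham 28 d livers, with 4.23, 4.44 and 5.13 in BDL 48 h livers and 4.41, 4.17 and 4.12 in sham 48 h livers. Every liver ligated for 28 d exceeded every other control liver. The interaction was 4.18 (SE 0.74, 18.1-fold, adjusted p = 0.00739) and the ligated side 4.05. Tgfb3, a TGF-beta ligand, read 6.6, 6.74 and 8.46 in BDL 28 d livers against 5.31 to 5.52 in sham 28 d livers, and 5.19 to 5.54 in BDL 48 h livers against 5.54 to 5.69 in sham 48 h livers. Its highest value lay in replicate 3, the array that was also highest for the stellate cell markers, and the call held without it. Its interaction was 2.07 (adjusted p = 0.0258), and the call was lost in 7 of the 12 fits without 1 array, with adjusted p up to 0.118 over all alternatives. Bmp6, a BMP ligand of the sinusoid, had an interaction of 1.10 (adjusted p = 0.0339, up to 0.0862), and its call held in 1 of the 12 fits without 1 array. These 3 were the called members of 26 measured genes of the pathway, all higher, with a median interaction of 0.09 over the list and 0 over all genes. At an unadjusted p under 0.05 by limma, 8 members were higher and 5 lower, beside 1352 and 1482 of all 18820 genes. Inhba, the activin A subunit, did not pass (-1.95, adjusted p = 0.0892).

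Matrix genes gave few calls. Ccn2, connective tissue growth factor, a matricellular protein of fibrotic tissue, read 9.11, 9.88 and 10.58 in BDL 28 d livers and 7.25, 7.26 and 7.55 in sham 28 d livers. At 48 h the groups overlapped, with 7.02, 7.49 and 7.6 in BDL livers and 7.47, 7.76 and 7.42 in sham livers. Ligation raised it by 2.51 at 28 d (adjusted p = 1.13e-05) and its effect was -0.18 at 48 h (adjusted p = 0.795), an interaction of 2.69 (SE 0.44, adjusted p = 0.00432) with a ligated side of 2.49. Fbln5, an elastic fibre protein, was the called member of 22 stellate cell and myofibroblast markers (1.89, adjusted p = 0.0466), and its call was lost in 8 of the 12 fits without 1 array, with adjusted p up to 0.131. Its effect was 0.911 at 28 d, which was called, and -0.975 at 48 h, which was not. None of the 23 fibrillar collagen and cross-linking genes was called in the interaction by limma, with 2 higher and 2 lower at an unadjusted p under 0.05. At that threshold 1352 of all 18820 genes were higher and 1482 lower, the background for such counts in every list. Col1a1, which encodes a chain of type I collagen, had effects of 1.75 at 28 d (adjusted p = 0.00287) and 1.16 at 48 h (adjusted p = 0.0699) and an interaction of 0.59 (adjusted p = 0.672). The list averaged 6.21, 6.54 and 7.61 in BDL 28 d livers, 6.10 to 6.26 in sham 28 d livers, 6.22 to 6.49 in BDL 48 h livers and 6.07 to 6.14 in sham 48 h livers, so the higher level at 28 d lay mostly in replicate 3.

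Several late genes are products of macrophages. Ctss, cathepsin S, a lysosomal protease of antigen-presenting cells, had one of the smallest adjusted p-values of the interaction. It read 9.05, 9.03 and 9.18 in BDL 28 d livers and 7.49, 7.73 and 7.66 in sham 28 d livers, while at 48 h BDL livers read 8.19, 8.04 and 7.98 and sham livers 7.99, 8.06 and 8.25. The groups were apart at 28 d and overlapped at 48 h. Its interaction was 1.49 (SE 0.15, adjusted p = 3.63e-05), of which 1.02 lay between the ligated groups and -0.47 between the sham groups. C1qc, a chain of complement C1q made by resident macrophages, had the same form: 10.22, 10.12 and 10.14 in BDL 28 d livers against 9.06, 9.25 and 8.65 in sham 28 d livers, and 9.63, 9.48 and 9.45 in BDL 48 h livers against 9.42, 9.54 and 9.42 in sham 48 h livers. Its interaction was 1.11 (SE 0.20, adjusted p = 0.00929). Vsig4, a complement receptor of Kupffer cells, had 0.98 (adjusted p = 0.0414, up to 0.112 over the alternatives).

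C1qc and Vsig4 were the called members of 19 Kupffer cell markers, which had a median interaction of 0.38, and Ctss was the called member of 20 recruited macrophage markers (median 0.58). The Kupffer list averaged 8.86 to 9.02 in BDL 28 d livers and 8.35 to 8.69 in sham 28 d livers, against 8.91 to 8.93 in BDL 48 h livers and 8.71 to 8.84 in sham 48 h livers. Its level was therefore alike in both ligated groups and lowest in sham 28 d livers. Recruited macrophage markers were raised at both times, with 16 of 20 called up at 28 d and 14 at 48 h. Over all genes, 11.7% were called up at 28 d and 5.61% at 48 h. Ccl6, a chemokine of myeloid cells in rodents, rose by 2.75 at 28 d (adjusted p = 4.27e-07) with an effect of 0.69 at 48 h (adjusted p = 0.0953), an interaction of 2.06 (SE 0.36, adjusted p = 0.00655). Rgs1, a regulator of G protein signalling in leukocytes, read 8.13, 8.25 and 7.21 in BDL 28 d livers and 5.4, 5.31 and 4.48 in sham 28 d livers, with 4.97 to 5.91 in BDL 48 h livers and 4.81 to 5.2 in sham 48 h livers (interaction 2.47, SE 0.43, adjusted p = 0.00703). Cell number and RNA per cell were not separated for any of these.

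Other late genes with a ligated side as large as the interaction included Igdcc4, an immunoglobulin superfamily receptor, at 3.09 (SE 0.48, adjusted p = 0.00272), Lrtm2, a leucine-rich repeat membrane protein, at 2.54 (SE 0.37, adjusted p = 0.00151), and Dpep1, a dipeptidase that cleaves leukotriene D4, at 2.43 (SE 0.38, adjusted p = 0.00267). Igdcc4 read 7.73, 7.51 and 6.90 in BDL 28 d livers and between 4.01 and 4.36 in all 9 others. Lrtm2 read 7.69, 7.40 and 6.22 in BDL 28 d livers and between 4.24 and 4.5 elsewhere. Dpep1 differed in form, since it was below its sham in every liver ligated for 48 h (4.06, 4.39 and 4.56 against 5.01, 4.98 and 4.89), an effect of -0.62 that did not pass (adjusted p = 0.16), and above it at 28 d (6.71, 6.12 and 7.49 against 5.10, 4.96 and 4.84). Fmo2, a flavin monooxygenase more abundant in female liver, rose by 2.86 at 28 d and had an interaction of 2.25 (SE 0.43, adjusted p = 0.0118). It was the called member of 13 female-biased genes, whose median interaction was -0.07.

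**Figure D3:**
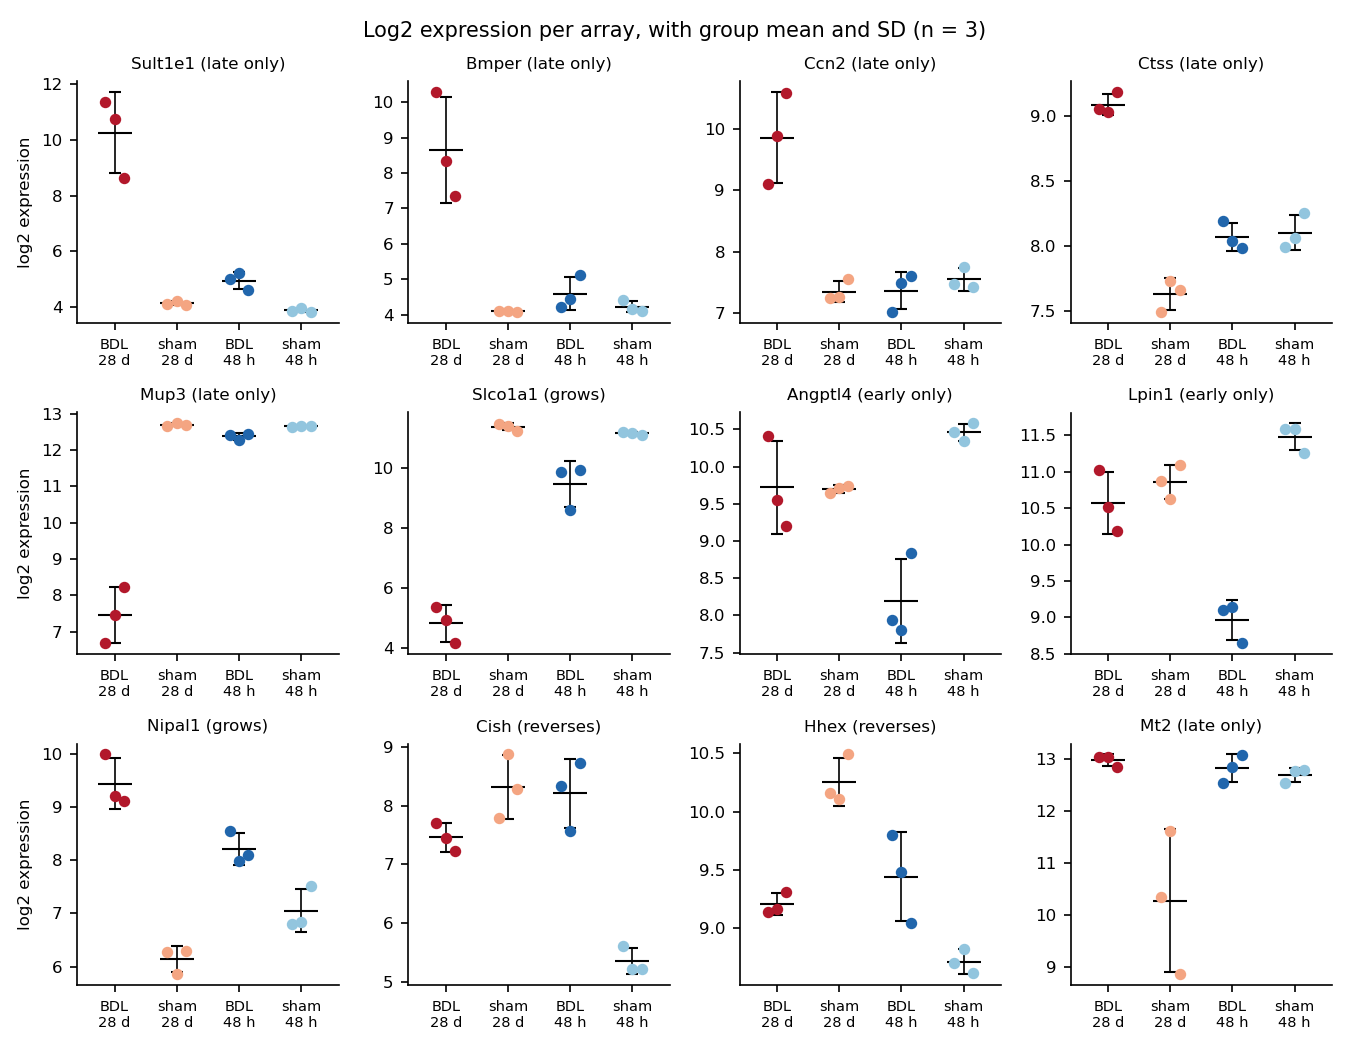
Log2 expression on each array for 12 called genes, with groups in the order control BDL 28 d, sham 28 d, BDL 48 h and sham 48 h; bars give the mean and SD of 3 arrays. Sult1e1, Bmper and Ccn2 are high in the livers ligated for 28 d, Lpin1 and Angptl4 are low in those ligated for 48 h, and Cish and Hhex are lowest in the arrays labelled control sham 48 h, and Mt2 is lowest in the sham 28 d arrays.

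For the metallothioneins, small metal-binding proteins induced by zinc, glucocorticoids and interleukin 6, the sham arrays carried the interaction. Mt2 read 13.04, 13.05 and 12.85 in BDL 28 d livers and 10.35, 11.63 and 8.87 in sham 28 d livers, against 12.55, 12.85 and 13.08 in BDL 48 h livers and 12.54, 12.77 and 12.79 in sham 48 h livers. The 9 livers outside the sham 28 d group lay close together, and the sham 28 d livers lay below them with a wide spread. Its interaction was 2.57 (SE 0.55, adjusted p = 0.027), its ligated side 0.15 and its sham side -2.42 (adjusted p = 0.0116). Mt1 read 12.62, 12.55 and 12.09 in BDL 28 d livers and 9.59, 9.97 and 8.17 in sham 28 d livers, with 11.49, 12.09 and 12.60 in BDL 48 h livers and 11.10, 11.67 and 11.48 in sham 48 h livers. Its interaction was 2.53 (SE 0.53, adjusted p = 0.0234) and its sham side -2.17 (adjusted p = 0.0258). Both calls were lost with the 28 d sham arrays at both times (adjusted p = 0.861 for Mt2 and 0.612 for Mt1) and in at least 4 of the 12 fits that left out 1 array. They were the called members of 25 acute phase genes. Lcn2, lipocalin 2, had a sham side of -2.39 (adjusted p = 0.0259) and an interaction of 2.30 that did not pass (adjusted p = 0.0631).

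Fkbp5, a co-chaperone of the glucocorticoid receptor and itself a target of that receptor, had a late only response. It read 9.88, 9.46 and 8.84 in BDL 28 d livers and 7.03, 8.31 and 7.16 in sham 28 d livers, and 7.88, 8.25 and 8.53 in BDL 48 h livers and 8.66, 8.83 and 8.92 in sham 48 h livers. Ligated livers were the higher group at 28 d and the lower group at 48 h, without overlap at either time. The effect was 1.90 at 28 d (adjusted p = 0.000278) and -0.58 at 48 h (adjusted p = 0.303), an interaction of 2.48 (SE 0.46, adjusted p = 0.0097). Its ligated side was 1.17 (adjusted p = 0.0264) and its sham side -1.30, which did not pass (adjusted p = 0.173). Per1, a clock gene also induced by glucocorticoids, had an interaction of 2.17 (SE 0.49, adjusted p = 0.0338, up to 0.117 over the alternatives). It was the called member of 15 clock genes (median 0.51), a list that averaged 8.18, 7.62 and 7.19 in BDL 28 d livers and 7.10 to 7.42 in the other control groups. The labels give no time of day of sampling.

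The promoters of Mt2 and Mt1 are shown because the metal response of these genes runs through the factor MTF1, whose sites share a short core. Windows run 250 bases before to 50 bases after the gene start, from RefSeq on GRCm38.p6, both on the + strand: chr8:94172368-94172667 for Mt2 and chr8:94178839-94179138 for Mt1. Capitals mark matches on either strand to TGCACNC or TGCGCNC.
Mt2: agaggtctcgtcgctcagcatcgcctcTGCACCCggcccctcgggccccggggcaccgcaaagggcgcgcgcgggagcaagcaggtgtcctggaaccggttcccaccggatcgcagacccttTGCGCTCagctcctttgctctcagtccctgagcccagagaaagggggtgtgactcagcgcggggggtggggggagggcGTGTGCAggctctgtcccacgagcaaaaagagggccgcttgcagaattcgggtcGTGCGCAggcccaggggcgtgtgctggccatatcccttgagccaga
Mt1: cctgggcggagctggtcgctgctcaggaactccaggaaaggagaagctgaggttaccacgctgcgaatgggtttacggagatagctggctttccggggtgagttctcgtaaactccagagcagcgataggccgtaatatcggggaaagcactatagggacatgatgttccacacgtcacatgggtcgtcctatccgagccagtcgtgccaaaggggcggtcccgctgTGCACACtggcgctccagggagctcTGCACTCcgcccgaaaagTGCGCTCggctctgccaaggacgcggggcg
There were 4 matches in the Mt2 window and 3 in the Mt1 window. Of the 14749 tested genes with a window, 34.2% held at least 1 match and 10.72% at least 2. Among the 190 called genes with a window, 31.1% held at least 1 and 15.79% at least 2. A match describes letters and is not a bound site.

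Genes that mark male liver had a larger loss at 28 d than at 48 h. The list of male-biased genes averaged 7.11, 7.56 and 7.16 in BDL 28 d livers and 11.01, 11.35 and 11.20 in sham 28 d livers, against 10.14, 9.20 and 9.81 in BDL 48 h livers and 11.20, 11.25 and 11.08 in sham 48 h livers. All 3 livers ligated for 28 d lay below all 3 ligated for 48 h, which lay below all 6 sham livers. At 28 d 19 of 19 measured members were called down, at 48 h 11 of 19, and in the interaction 8 of 19 were lower and none higher. Over all genes, 11.5% were called down at 28 d, 3.83% down at 48 h and 0.59% lower in the interaction. The list's median effect was -3.43 at 28 d and -1.26 at 48 h, and its median interaction -2.12, against 0 over all genes. The sham side had a median of 0.09. These members had been seen to fall in these data, so the list is no independent evidence of its direction.

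The major urinary proteins, pheromone carriers that male mouse liver secretes, showed both forms of late loss. Mup3 read 6.69, 7.47 and 8.23 in BDL 28 d livers and 12.67, 12.73 and 12.70 in sham 28 d livers, with 12.40, 12.27 and 12.45 in BDL 48 h livers and 12.63, 12.66 and 12.66 in sham 48 h livers. At 48 h the ligated livers lay slightly below every sham, an effect that did not pass (-0.27, adjusted p = 0.811). At 28 d the effect was -5.24 (37.8-fold, adjusted p = 9.62e-07), an interaction of -4.97 (SE 0.73, adjusted p = 0.00178). Mup21 grew: it read 2.82, 3.20 and 3.11 in BDL 28 d livers and 8.20, 8.70 and 8.37 in sham 28 d livers, with 6.58, 5.96 and 6.98 in BDL 48 h livers and 8.40, 8.32 and 8.26 in sham 48 h livers. Its effect was -5.38 at 28 d and -1.82 at 48 h (adjusted p = 0.000417), an interaction of -3.56 (SE 0.40, adjusted p = 0.000109). Mup6 had effects of -5.50 at 28 d and -1.20 at 48 h (adjusted p = 0.0623) and an interaction of -4.30 (adjusted p = 0.000521). The Mup genes are near-identical copies, so probe signal may be shared among them, and their values are uncertain as separate genes.

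Slco1a1 and Sult2a8 were called down at both times, with the larger effect at 28 d. Slco1a1, a sinusoidal carrier that takes up bile acids and organic anions, read 5.39, 4.95 and 4.18 in BDL 28 d livers and 11.48, 11.39 and 11.25 in sham 28 d livers. At 48 h it read 9.89, 8.6 and 9.94 in BDL livers and 11.20, 11.17 and 11.10 in sham livers. The 4 groups formed 3 levels, with ligated 28 d livers lowest, ligated 48 h livers between, and both sham groups together. The interaction was -4.86 (SE 0.65, adjusted p = 0.00059). It was the called member of 7 uptake carriers, whose median interaction was -0.46. Sult2a8, a bile acid sulfotransferase of mouse liver, read 4.60, 4.43 and 4.13 in BDL 28 d livers and 11.64, 11.61 and 11.47 in sham 28 d livers, with 9.82, 8.08 and 9.98 in BDL 48 h livers and 11.54, 11.36 and 11.31 in sham 48 h livers (interaction -5.08, SE 0.76, adjusted p = 0.00193).

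Serpina4-ps1, a transcribed serpin pseudogene, had the largest interaction of either sign among the named genes. It read 3.78, 4.12 and 3.33 in BDL 28 d livers and 11.13, 11.41 and 11.48 in sham 28 d livers, with 9.73, 7.68 and 8.00 in BDL 48 h livers and 10.71, 9.75 and 9.92 in sham 48 h livers. The interaction was -5.94 (SE 0.66, 61.4-fold, adjusted p = 0.000109), with a ligated side of -4.72 and a sham side of 1.22 (adjusted p = 0.503). Its RNA may share sequence with related serpins. Elovl3, a fatty acid elongase, fell by 7.30 at 28 d and by 3.04 at 48 h. Its interaction of -4.26 (SE 0.93, adjusted p = 0.0288) lost its call in 8 of the 12 fits without 1 array, with adjusted p up to 0.078. Hsd3b5, a male-specific steroid dehydrogenase, fell by 8.50 at 28 d and by 4.56 at 48 h, and its interaction of -3.95 did not pass (SE 1.22, adjusted p = 0.121).

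Ces3a and Ces3b, carboxylesterases that hydrolyse esters of lipids and drugs, also had a lower interaction. Ces3a read 6.82, 9.05 and 8.46 in BDL 28 d livers against 12.51 to 12.61 in sham 28 d livers, and 11.96, 11.45 and 11.83 in BDL 48 h livers against 12.39 to 12.45 in sham 48 h livers. Its interaction was -3.79 (SE 0.67, adjusted p = 0.00767), and that of Ces3b was -2.37 (SE 0.46, adjusted p = 0.0144). Sdr9c7, a short-chain dehydrogenase, had effects of -4.33 at 28 d and -1.82 at 48 h and an interaction of -2.50 (SE 0.41, adjusted p = 0.0044). Keg1, a glycine N-acyltransferase-like protein, had an interaction of -4.11 (SE 0.81, adjusted p = 0.0145), and its adjusted p was 0.0631 in the fit of the 12 control arrays alone. Of 32 drug-metabolizing cytochromes P450, 2 were called, both lower: Cyp2u1 at -1.78 (SE 0.30, adjusted p = 0.00516) and Cyp4f14 at -1.86 (adjusted p = 0.0434, up to 0.121 over the alternatives). Of 14 bile acid synthesis genes, Scp2, a peroxisomal thiolase and sterol carrier, was called (-0.66, adjusted p = 0.0414, up to 0.109). Cyp7a1, the rate-limiting enzyme of that pathway, had effects of 0.06 at 28 d and -1.84 at 48 h, neither called, and an interaction of 1.89 with an SE of 1.63 (adjusted p = 0.634).

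Clec2h, a C-type lectin-like protein, and Phlda1, a pleckstrin homology-like protein, were called down at 28 d, and their sham values were higher at 28 d without passing the test. Clec2h read 5.13, 4.84 and 4.82 in BDL 28 d livers and 8.65, 8.51 and 8.58 in sham 28 d livers, with 8.83, 8.03 and 7.31 in BDL 48 h livers and 6.90, 6.70 and 6.75 in sham 48 h livers. Ligated livers were lowest of all at 28 d, and at 48 h they were above every sham, by 1.27, which did not pass (adjusted p = 0.0736). The interaction was -4.93 (SE 0.62, adjusted p = 0.000342), with a ligated side of -3.13 (adjusted p = 0.000248) and a sham side of 1.80 (adjusted p = 0.151). Phlda1 had effects of -3.29 at 28 d (adjusted p = 1.32e-05) and 0.67 at 48 h (adjusted p = 0.364) and an interaction of -3.97 (SE 0.59, adjusted p = 0.00178).

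Liver transcription factors gave 5 lower calls among 16 measured members and no higher one, and 2 lower calls in the fit of the 12 control arrays alone. Over all 18820 genes, 0.59% were called lower in the main fit, and 59 genes in the fit of the 12 control arrays. For Foxa1, Foxa2, Hhex and Cebpa the sham groups differed more between the times than the ligated groups did. That sham difference uses the arrays labelled control sham 48 h. Foxa2, a pioneer factor of hepatocyte genes, read 6.78, 6.85 and 6.87 in BDL 28 d livers and 7.49, 7.98 and 7.93 in sham 28 d livers, with 7.40, 7.28 and 7.43 in BDL 48 h livers and 7.41, 7.07 and 7.19 in sham 48 h livers. It was lower with ligation at 28 d without overlap, while the 48 h groups overlapped. Its interaction was -1.11 (SE 0.19, adjusted p = 0.0049), split into a ligated side of -0.53 (adjusted p = 0.0149) and a sham side of 0.58 (adjusted p = 0.111). Foxa1, its close relative, had an interaction of -1.17 (SE 0.21, adjusted p = 0.00847), with a ligated side of -0.36 (adjusted p = 0.127) and a sham side of 0.80 (adjusted p = 0.034). Hhex is described with the reversing genes. Nr5a2, a nuclear receptor that acts on bile acid genes, had an interaction of -0.63 (adjusted p = 0.0395, up to 0.0973). Cebpa, a hepatocyte identity factor, had one of -0.78 (adjusted p = 0.0434), with a sham side of 0.45 and a ligated side of -0.33. Cebpa is named as a call of this list after its values were seen. Foxq1, a forkhead factor outside the list, had effects of -2.08 at 28 d and 0.39 at 48 h and an interaction of -2.47 (SE 0.33, adjusted p = 0.000562), of which 1.76 lay between the sham groups (adjusted p = 0.00188). Its ligated side was -0.71 (adjusted p = 0.0546), so its call, like that of Foxa1, was lost with the 28 d sham arrays at both times. A dimmer probe set of Foxq1 gave -1.36. The list's median interaction was -0.15.

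Of the 28 early only genes, 18 fell at 48 h and 10 rose. Lpin1, a phosphatidate phosphatase of triglyceride synthesis, read 11.02, 10.51 and 10.18 in BDL 28 d livers and 10.87, 10.62 and 11.09 in sham 28 d livers. At 48 h it read 9.10, 9.15 and 8.65 in BDL livers and 11.58, 11.58 and 11.26 in sham livers. The groups overlapped at 28 d and did not at 48 h. Its effect was -0.29 at 28 d (adjusted p = 0.514) and -2.51 at 48 h (adjusted p = 2.73e-05), an interaction of 2.22 (SE 0.40, adjusted p = 0.00868) with a ligated side of 1.6. Angptl4, a secreted inhibitor of lipoprotein lipase, read 10.41, 9.55 and 9.20 in BDL 28 d livers and 9.64, 9.71 and 9.74 in sham 28 d livers, with 7.94, 7.80 and 8.84 in BDL 48 h livers and 10.46, 10.35 and 10.58 in sham 48 h livers. Its effect was 0.02 at 28 d (adjusted p = 0.967) and -2.27 at 48 h (adjusted p = 0.000144), an interaction of 2.29 (SE 0.43, adjusted p = 0.0118) with a ligated side of 1.52. Lpin1 was 1 of 2 called members, both higher, of 25 fatty acid and triglyceride synthesis genes, of which 4 had a positive interaction, with a median of -0.44 and with 3 higher and 6 lower at an unadjusted p under 0.05. Angptl4 was the called member of 20 fatty acid oxidation and PPAR-alpha target genes, whose median interaction was -0.13.

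Plin4, a lipid droplet protein, had an interaction of 1.87 (adjusted p = 0.0234, up to 0.0669 over the alternatives). It is also one of 14 fat and muscle markers, of which it was the called member; that list averaged 4.10 to 4.26 in BDL 28 d livers, 4.11 to 4.20 in sham 28 d livers, 3.99 to 4.09 in BDL 48 h livers and 4.15 to 4.33 in sham 48 h livers. St3gal5, the enzyme that makes the ganglioside GM3, had effects of 0.57 at 28 d and -1.07 at 48 h and an interaction of 1.65 (SE 0.32, adjusted p = 0.0142). Cyp21a1, steroid 21-hydroxylase, had 0.43 and -1.02 and an interaction of 1.44 (SE 0.24, adjusted p = 0.00425). Gpcpd1, which degrades glycerophosphocholine, and Got1, the cytosolic aspartate aminotransferase, had interactions of 2.11 (adjusted p = 0.0357, up to 0.103) and 1.60 (adjusted p = 0.0327, up to 0.121).

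Slc8a1, a sodium-calcium exchanger, was the early only gene with the largest interaction, 2.85 (SE 0.43, adjusted p = 0.00229). It read 4.71, 4.81 and 5.0 in BDL 28 d livers and 4.03, 4.81 and 4.28 in sham 28 d livers, with 4.20, 3.63 and 4.22 in BDL 48 h livers and 6.05, 7.24 and 5.89 in sham 48 h livers. The arrays labelled control sham 48 h stood above the 9 others, and with the 28 d sham arrays in their place the call was lost (0.83, adjusted p = 0.0905). A dimmer second probe set gave an interaction of 0.48.

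Early rises that had passed by 28 d were smaller. Zdhhc2, a palmitoyltransferase, read 4.44, 4.45 and 5.21 in BDL 28 d livers and 4.96, 5.13 and 5.3 in sham 28 d livers, with 6.10, 5.83 and 5.88 in BDL 48 h livers and 4.79, 5.02 and 5.01 in sham 48 h livers. The groups overlapped at 28 d and were apart at 48 h. Its effect was -0.43 at 28 d (adjusted p = 0.107) and 1.0 at 48 h (adjusted p = 0.00189), an interaction of -1.43 (SE 0.26, adjusted p = 0.00966). Vnn3, a vanin of the pantetheinase family, had 1.65 at 48 h (adjusted p = 0.000979) and -0.03 at 28 d, an interaction of -1.68 (adjusted p = 0.0434, up to 0.112). Nnt also fell in this class at -1.29 (adjusted p = 0.0211), with effects of -0.50 at 28 d and 0.80 at 48 h, and its call was lost with the 28 d sham arrays at both times (-0.35, adjusted p = 0.27); its dimmer probe set gave 0.11.

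Genes that rose at 48 h and rose further by 28 d numbered 10. Nipal1, a magnesium transporter, read 9.99, 9.20 and 9.12 in BDL 28 d livers and 6.28, 5.86 and 6.29 in sham 28 d livers, with 8.55, 7.99 and 8.10 in BDL 48 h livers and 6.81, 6.83 and 7.52 in sham 48 h livers. The ligated groups were above sham at each time and did not overlap with each other. Its effect was 3.30 at 28 d (adjusted p = 9.57e-09) and 1.16 at 48 h (adjusted p = 0.00214), an interaction of 2.14 (SE 0.31, adjusted p = 0.00159) with a ligated side of 1.23. Slc22a27, of the organic anion transporter family, had effects of 3.15 at 28 d and 0.92 at 48 h (interaction 2.23, SE 0.41, adjusted p = 0.00868), and Abca5, a lipid transporter of lysosomes, 1.62 and 0.49 (interaction 1.13, SE 0.21, adjusted p = 0.00929). Csf2rb2, a subunit of the mouse interleukin 3 receptor, had 1.47 (adjusted p = 0.0263, up to 0.0762) and the blood cell factor Runx1 had 1.26 (adjusted p = 0.0434, up to 0.123), and both lost their call in at least 6 of the 12 fits without 1 array.

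Of the 13 reversing genes, Cish had the largest interaction. It encodes a feedback inhibitor of cytokine and growth hormone signalling that STAT5 induces. Cish read 7.71, 7.45 and 7.22 in BDL 28 d livers and 7.79, 8.87 and 8.29 in sham 28 d livers, with 8.34, 7.57 and 8.72 in BDL 48 h livers and 5.60, 5.22 and 5.22 in sham 48 h livers. The arrays labelled control sham 48 h were below every other control array, and the 9 others overlapped in part. The effect was -0.86 at 28 d (adjusted p = 0.0225) and 2.87 at 48 h (adjusted p = 4.53e-06), an interaction of -3.72 (SE 0.37, adjusted p = 3.63e-05). The sham side was 2.97 (adjusted p = 9.55e-06) and the ligated side -0.75 (adjusted p = 0.0727), so the call ended with the 28 d sham arrays at both times. Cish was the called member of 13 growth hormone and STAT5 signalling genes. Onecut1, which is in that list and among the liver transcription factors, had an interaction of -2.10 (adjusted p = 0.0554) and a sham side of 1.89 (adjusted p = 0.0481).

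The promoter of Cish is shown because STAT5 binds the spaced palindrome TTCNNNGAA. The window is chr9:107296409-107296708, + strand, RefSeq on GRCm38.p6, 250 bases before to 50 after the gene start, and capitals mark the matches.
Cish: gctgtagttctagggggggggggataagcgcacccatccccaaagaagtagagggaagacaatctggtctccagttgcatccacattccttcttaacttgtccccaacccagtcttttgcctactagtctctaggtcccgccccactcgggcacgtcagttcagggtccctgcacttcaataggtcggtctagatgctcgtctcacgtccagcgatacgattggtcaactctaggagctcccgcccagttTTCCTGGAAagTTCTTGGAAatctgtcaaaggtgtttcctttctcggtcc
It held 2 matches, which 0.52% of the 14749 tested genes with a window did, while 9.1% held at least 1. Of the called genes with a window, 9.4% of those with a higher interaction and 4.8% of those with a lower one held at least 1 match. Male-biased genes can be STAT5 targets through sites far outside such a window, and nothing about the factor is drawn from these letters.

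Hhex, a homeobox factor of the developing and adult liver, reversed in the same way. It read 9.14, 9.16 and 9.31 in BDL 28 d livers and 10.16, 10.11 and 10.49 in sham 28 d livers, with 9.80, 9.48 and 9.04 in BDL 48 h livers and 8.70, 8.82 and 8.61 in sham 48 h livers. Ligated livers were the lower group at 28 d and the higher group at 48 h. Its interaction was -1.78 (SE 0.22, adjusted p = 0.000295), the sham side 1.54 (adjusted p = 3.52e-05) and the ligated side -0.24 (adjusted p = 0.363).

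Reversing genes whose call, though not the change of sign, was also tested on the ligated side and held there included Cd209f. It is a C-type lectin of the DC-SIGN family. For each such gene the sign at 48 h is measured against the arrays labelled control sham 48 h. Cd209f read 3.49, 3.67 and 4.11 in BDL 28 d livers and 5.47, 5.14 and 5.06 in sham 28 d livers, with 5.28, 5.63 and 5.63 in BDL 48 h livers and 4.66, 4.92 and 4.49 in sham 48 h livers. Neither time showed overlap between ligated and sham livers. The interaction was -2.29 (SE 0.27, adjusted p = 0.000217), with a ligated side of -1.76 (adjusted p = 2.9e-05). Nfyb, a subunit of the CCAAT-binding factor NF-Y, had effects of -0.56 at 28 d and 0.47 at 48 h (interaction -1.02, adjusted p = 0.00901). Vegfb, a vascular growth factor, had -0.53 and 0.47 (interaction -1.01, adjusted p = 0.0181) and lost its call without control sham 48 h replicate 3 (adjusted p = 0.0594).

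In the opposite direction, lower at 48 h and higher at 28 d, were Fam107a, an actin-associated stress gene, and the mitochondrial carrier Slc25a47. Fam107a read 5.31, 5.14 and 4.85 in BDL 28 d livers and 4.19, 4.52 and 4.55 in sham 28 d livers, with 4.23, 4.23 and 4.10 in BDL 48 h livers and 5.36, 5.56 and 5.70 in sham 48 h livers. Its interaction was 2.04 (SE 0.25, adjusted p = 0.000325), with a ligated side of 0.91 (adjusted p = 0.00351) and a sham side of -1.12 (adjusted p = 0.0114). Slc25a47 read 12.17, 11.77 and 11.75 in BDL 28 d livers and 11.38, 11.29 and 11.32 in sham 28 d livers, with 10.59, 10.95 and 11.36 in BDL 48 h livers and 11.92, 11.91 and 11.78 in sham 48 h livers (interaction 1.47, SE 0.23, adjusted p = 0.00299, ligated side 0.93). Both genes kept ligated and sham livers apart at each time. Ip6k2, an inositol phosphate kinase, had effects of 0.93 at 28 d and -0.82 at 48 h (interaction 1.75, SE 0.34, adjusted p = 0.0144).

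Several lists had a median interaction below 0 without a called member, which no test of the list supports as a change. Over all 18820 genes, 1352 were higher and 1482 lower at an unadjusted p under 0.05 by limma. That is the background for the list counts at that threshold here and below. For calls of the ligation effect, the shares over all genes were 11.7% up and 11.5% down at 28 d. At 48 h they were 5.61% up and 3.83% down. Of 31 cell cycle genes, 14 were called up at 48 h and 3 at 28 d, with 1 down. Their median effect was 0.19 at 28 d and 0.86 at 48 h. None was called in the interaction by limma, where 8 were lower at an unadjusted p under 0.05, and the median interaction was -0.62, or -0.40 without control BDL 28 d replicate 1. Mki67, a proliferation marker, read 4.61, 5.56 and 6.55 in BDL 28 d livers and 5.29, 5.49 and 5.07 in sham 28 d livers, with 7.39, 7.27 and 6.54 in BDL 48 h livers and 5.4, 4.97 and 6.04 in sham 48 h livers. Its effect was 0.29 at 28 d (adjusted p = 0.681) and 1.60 at 48 h (adjusted p = 0.0246), and its interaction of -1.30 did not pass (SE 0.62, adjusted p = 0.326). The list averaged 5.17, 5.63 and 6.11 in BDL 28 d livers, a spread that overlapped sham 28 d (5.45 to 5.47), against 6.87, 6.4 and 5.98 in BDL 48 h livers and 5.52 to 5.81 in sham 48 h livers.

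Cholesterol synthesis genes had 19 of 19 negative interactions, with a median of -0.82, and none was called by limma; 4 had an unadjusted p under 0.05. Their median effect was -0.25 at 28 d and 0.59 at 48 h. The list averaged 9.22, 10.56 and 10.18 in BDL 28 d livers, 10.04 to 10.31 in sham 28 d livers, 10.71 to 10.97 in BDL 48 h livers and 10.10 to 10.29 in sham 48 h livers, so replicate 1 of BDL 28 d lay below its group. Without that array the median effect at 28 d was 0.24 and the median interaction -0.48, so the negative sign at 28 d rests on it. Members of this list share a regulator, SREBP2, and do not count as separate observations. Interferon response genes were called down for 12 of 26 members at 28 d, with a median effect of -0.63 at 28 d and -0.18 at 48 h. The median interaction was -0.51, or -0.31 without control BDL 28 d replicate 1, with no call by limma, where 8 were lower at an unadjusted p under 0.05. That list averaged 6.04, 7.00 and 7.00 in BDL 28 d livers against 7.12 to 7.46 in sham 28 d livers, again lowest in replicate 1. Among 21 NRF2 targets, genes of the oxidative stress response, 9 rose at 48 h and 5 rose and 2 fell at 28 d, with a median interaction of -0.40 and no call; 3 were lower at an unadjusted p under 0.05.

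Export pumps, neutrophil markers and bile duct cell markers had called members at both times and no called interaction by limma. Over all genes, 11.7% were called up and 11.5% down at 28 d, and 5.61% up and 3.83% down at 48 h. Of 15 export pumps 6 rose and 2 fell at 28 d and 5 rose and 2 fell at 48 h, and at an unadjusted p under 0.05 none had a higher interaction and 1 had a lower one. Abcb1a, a drug efflux pump, had effects of 2.90 at 28 d and 2.68 at 48 h and an interaction of 0.22 (SE 0.59, adjusted p = 0.902), and Slc51b, a subunit of the basolateral bile acid exporter, had 3.32 and 3.23 (interaction 0.09, SE 1.0, adjusted p = 0.978). Neutrophil markers rose for 10 of 16 members at 28 d and 7 at 48 h, and bile duct cell markers for 6 of 18 and 5 of 18. At an unadjusted p under 0.05, 1 neutrophil marker and 1 bile duct cell marker had a higher interaction and 2 bile duct cell markers a lower one. Timp1, the inhibitor of matrix proteases, had effects of 3.15 and 2.91 (interaction 0.24, SE 0.72, adjusted p = 0.914).

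**Figure D4:**
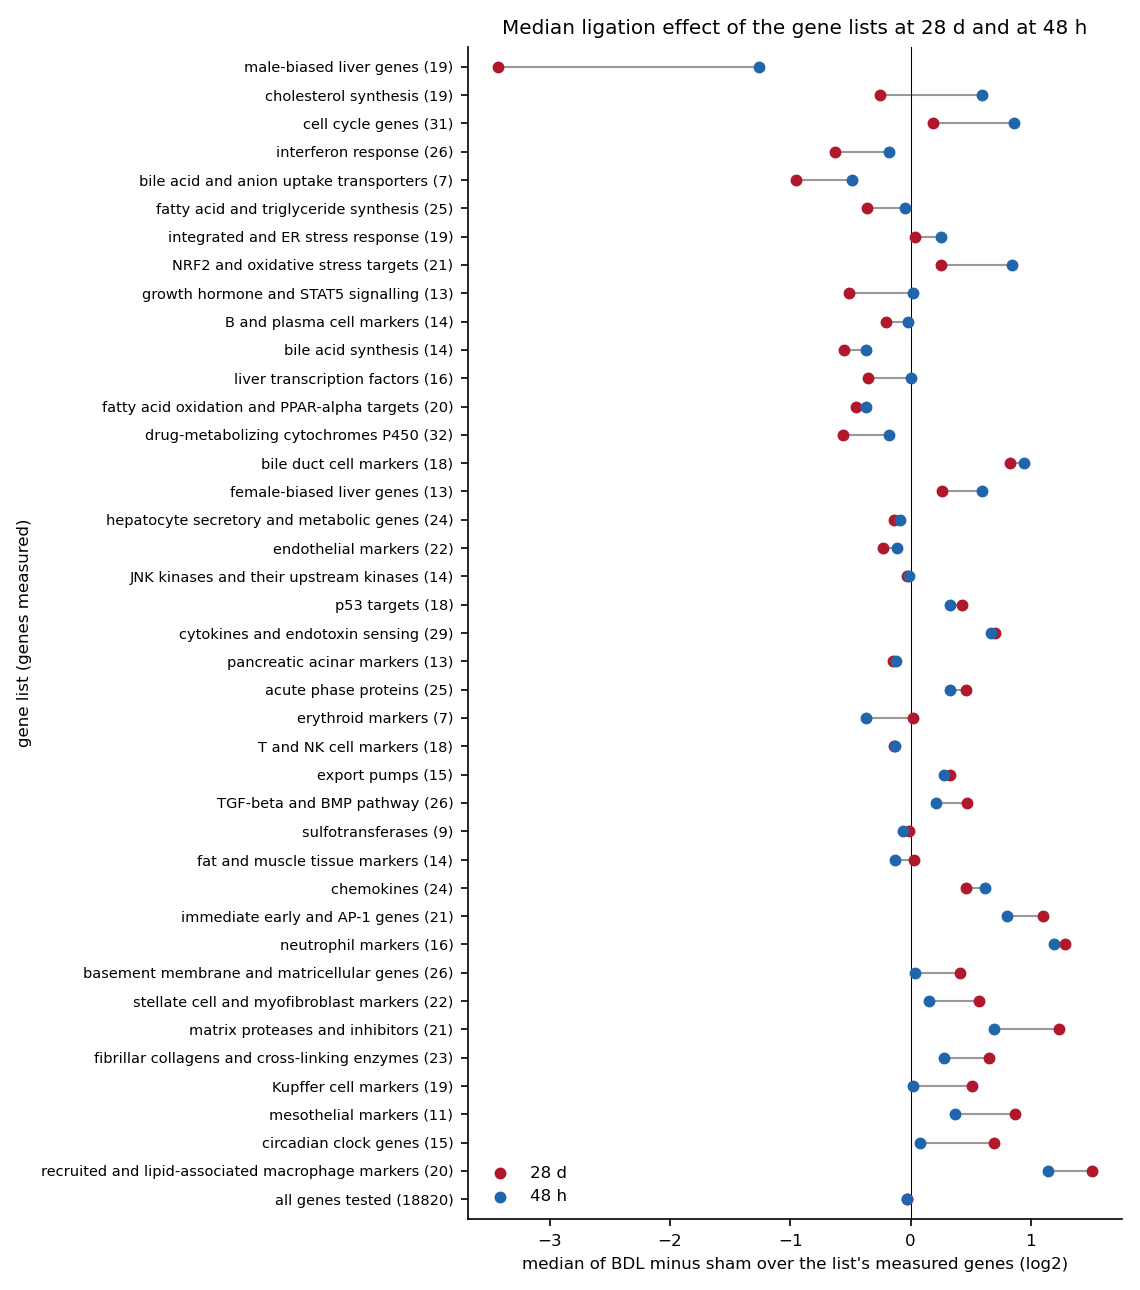
Median ligation effect (BDL minus sham, log2) at 28 d (red) and 48 h (blue) for 40 gene lists, with the number of genes measured in brackets; lists are ordered by their median interaction from lowest to highest and all 18820 genes stand in the bottom row. Male-biased genes lie farthest left at both times (-3.43 at 28 d and -1.26 at 48 h), and cholesterol synthesis genes lie at -0.25 at 28 d and 0.59 at 48 h, with 0.24 at 28 d without control BDL 28 d replicate 1.

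Ligated mutant livers, whose arrays enter the interaction test through the shared variance and not through its group means, gave the ligated side in other animals. Ligated JNK1Δhepa livers at 28 d against 48 h had 1751 genes higher (9.3% of all tested) and 1631 lower (8.67%), and ligated JNK1-/- livers 365 higher (1.94%) and 169 lower (0.898%). Of the 133 genes with a higher interaction in control liver, 96 were called higher in JNK1Δhepa and 19 in JNK1-/-. Of the 111 with a lower one, 71 were called lower in JNK1Δhepa and 16 in JNK1-/-. Same sign without regard to a call was found for 230 of the 244 genes in JNK1Δhepa and 161 in JNK1-/-. Over all 18820 genes tested it was found for 12419 in JNK1Δhepa and 9770 in JNK1-/-. For the 33 genes with the larger sham side, 5 were called the same way in JNK1Δhepa and 0 in JNK1-/- by limma.

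The difference in time change between mutant and control, tested over all genes, was called for 140 genes in JNK1-/- (0.744%) and 0 genes in JNK1Δhepa (0%, with 1338 at an unadjusted p under 0.05 by limma). Those tests share the control ligated arrays with the interaction, so values are given side by side. Sult1e1 had a difference between ligated 28 d and 48 h livers of 2.06 in JNK1-/- (adjusted p = 0.111) and 6.6 in JNK1Δhepa (adjusted p = 1.11e-05), against 5.29 in control. In JNK1-/- livers it read 10.57, 10.68 and 8.19 at 28 d and 7.72, 8.56 and 6.99 at 48 h, so at 48 h all 3 were above the control livers ligated for 48 h (4.62 to 5.23). Car3, carbonic anhydrase 3, had a difference of 1.82 in JNK1-/- (adjusted p = 0.174) and -4.75 in JNK1Δhepa (adjusted p = 0.000214), against -3.89 in control; its interaction of -4.00 (adjusted p = 0.0485, up to 0.128) was among the least stable. Mup3 fell by 3.55 in JNK1-/-, by 5.87 in JNK1Δhepa and by 4.91 in control, and Lrtm2 rose by 2.90, 3.19 and 2.63. Slc8a1 fell by 2.25 in JNK1-/- (adjusted p = 0.000453), where livers ligated for 48 h read 7.07, 7.44 and 7.43, and rose by 0.93 in JNK1Δhepa (adjusted p = 0.0411), against 0.83 in control.

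**Figure D5:**
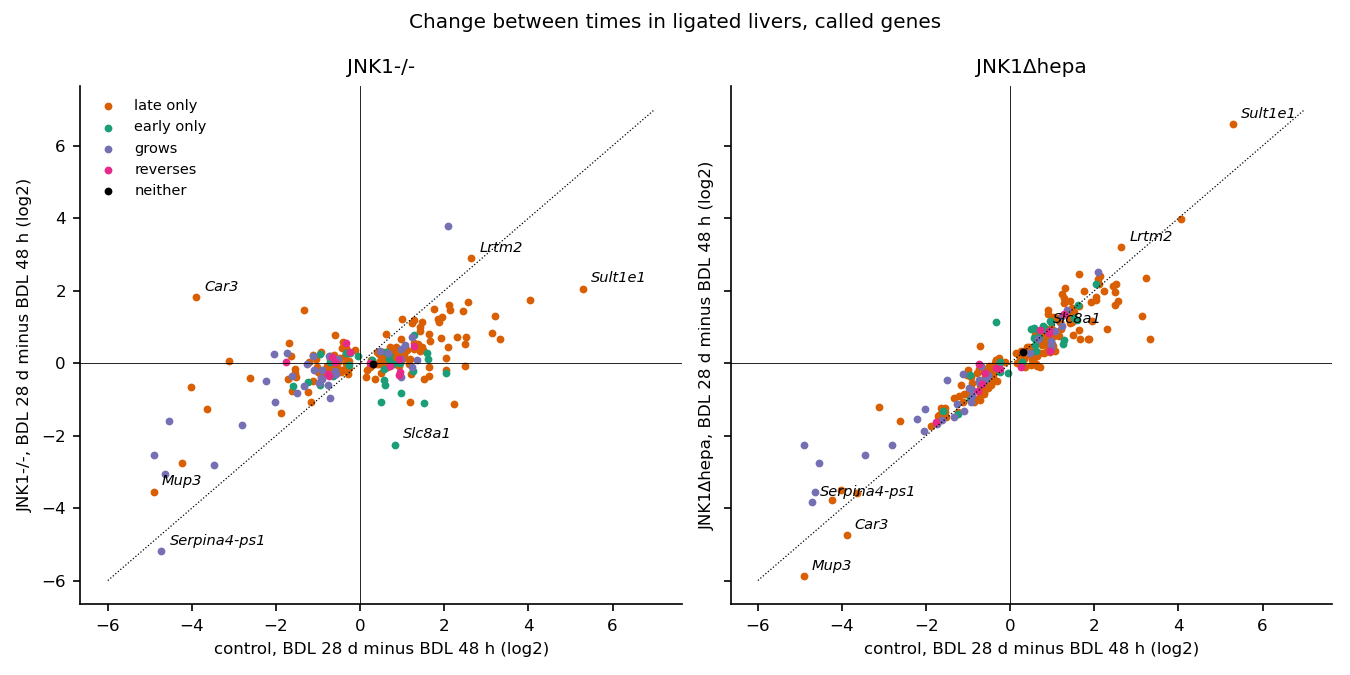
Difference between ligated livers at 28 d and 48 h (log2) in JNK1-/- (left) and JNK1Δhepa (right) on the vertical axes, against the same difference in control on the horizontal axes, for the 244 genes with a called interaction in control; the dotted line marks equality. In JNK1Δhepa 230 genes share the sign of the interaction and in JNK1-/- 161, with Car3 (1.82 in JNK1-/-, -3.89 in control) among those that do not. Of all 18820 genes tested, 12419 share it in JNK1Δhepa and 9770 in JNK1-/-.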

How the data were processed

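Whole-liver RNA from 24 mouse arrays was measured. The deposited values are log2 intensities that the authors made with RMA, per the submitters' processing notes; the version of RMA is not given in the sources used here. Of 35556 probe sets, 21218 had 1 symbol, 1881 several and 12457 none. Symbols were updated by gene number to the GRCm38.p6 RefSeq table (21185 matched, 33 not), and the brightest probe set stood for each of 18820 genes. A model of 8 groups was fitted with limma 3.58.1 in R 4.3.3 (16 residual degrees of freedom), with p-values adjusted by Benjamini-Hochberg over all genes and called under 0.05. The labels number the replicates without naming animals, so p-values measure the spread between these arrays, which may be technical.

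Named genes were the 12 called with the largest interaction in each direction, up to 8 per class and direction, and per list up to 4 by p and 3 by effect, without predicted genes and receptor or antibody families; Mapk8, Mapk9, Jun and Nnt were added. The members and the 40 gene lists were chosen with earlier results of these data known. Alternatives were quantile scaling, median centring, group weights, a variance trend, the mean of probe sets, no dim genes, the 12 control arrays alone, a replicate block, the 28 d sham arrays at both times, and leaving out each array. The split by sham and ligated sides and the fit of all probe sets were added after seeing the data. The fit was tested on simulated data. Promoters and motif matches come from RefSeq windows, searched on both strands.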

Additional observations from a re-analysis of the deposited data

Results flagged for a closer look

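Most of what stood out was the contrast itself. The ligation effect differed between 28 d and 48 h for 244 genes in the interaction test.

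For 13 of these genes the effect was called at both times with opposite signs, which is what brought them here. With a higher interaction these were Fam107a (2.04), Ip6k2 (1.75), Slc25a51 (1.54), Slc25a47 (1.47), Akap5 (1.07) and Slc29a4 (0.58). With a lower interaction they were Cish (-3.72), Cd209f (-2.29), Hhex (-1.78), Rnf152 (-1.43), Nfyb (-1.02), Vegfb (-1.01) and Cks2 (-0.71). Cish, Hhex, Rnf152, Fam107a and Slc29a4 had the larger difference on the sham side. In the 12 fits without 1 array, the call held in 3 for Akap5, in 4 for Cks2, and in 6 each for Slc25a51 and Rnf152. Over all alternatives the adjusted p by limma reached 0.109 for Akap5, 0.0935 for Cks2 and 0.0758 for Slc25a51. Slc29a4 lost its call in the fit of the 12 control arrays alone (adjusted p = 0.0542). With the 28 d sham arrays at both times the calls of Cish (-0.75, adjusted p = 0.0727), Hhex (-0.24, adjusted p = 0.363) and Rnf152 (-0.35, adjusted p = 0.366) were lost. Among the 1962 genes called in that setting, 6 reversed.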

How the results depend on the processing

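No called sign of the interaction reversed among the named genes under any alternative run, and 62 genes were called in every one. With each array centred on its median, 208 genes were lower and 59 grew. Weighting groups by their spread left 101 late only genes. The fit of the 12 control arrays alone called 126 genes, 67 higher and 59 lower, with 78 late only, 14 early only, 21 growing and 2 shrinking. Leaving out dim genes gave 1 shrinking gene. With the 28 d sham arrays at both times, 1962 genes were called, 1000 lower and 962 higher, with 1070 late only, 231 early only, 171 growing, 6 shrinking and 6 reversing. Leaving out 1 array at a time gave 112 to 612 calls, 54 to 311 higher and 49 to 301 lower, with 75 to 425 late only, 9 to 94 early only, 9 to 55 growing, 0 to 1 shrinking and 6 to 28 reversing. The highest count came without control BDL 28 d replicate 3 (612) and the next without its replicate 2 (391). The causes were not tested.

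With the replicate number as a block, 258 genes were called and 1 shrank. Deviations of same-numbered arrays correlated between -0.10 and 0.14. Such correlations among 3 arrays a group cannot show whether the numbers pair the samples, and the labels do not say. With 3 arrays a group the number of arrays limits the precision, and the median SE of the interaction was 0.183.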

Other observations

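Fitted over all 35556 probe sets, the interaction was called for 76 higher and 61 lower among the 21218 probe sets with 1 symbol, for 2 higher and 1 lower among the 1881 with several symbols, and for 28 higher and 15 lower among the 12457 that the annotation used here leaves without one. The last are given as counts because no gene can be named for them.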
